A study of Mus musculus with 12 samples.

Results

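Mog, Mobp, Opalin, Olig1, Olig2, Gfap, Aqp4 and Aspa, 8 of the 37432 genes in the deposited expression table, were followed by name through every cochlear library. They are genes of oligodendrocytes and astrocytes, and they were chosen because earlier results from these same data had shown high levels in some nerve-containing libraries and differences between repeats. Their levels are therefore described and not tested. Whole cochleae of P14 male mice had been cut into apical, middle and basal turns, and RNA-seq was run on 2 repeats of each turn from wild-type and from Gjb2 35delG homozygous mice, which gave 6 groups and 12 libraries. Homozygous males (titled ho, and entered as KO in the genotype field) came from embryonic stem cells by tetraploid complementation, were delivered by caesarean section and nursed by ICR females, and had an almost C57BL/6J background. The wild-type controls were age-matched males bought from a supplier, so genotype and origin of the animals cannot be told apart. The number of mice behind a library was not given, and p-values below measure only the spread between libraries. In bulk tissue, fewer cells of a type and less RNA per cell also cannot be told apart.

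The auditory nerve is myelinated by 2 kinds of glia. Schwann cells wrap its peripheral length, and oligodendrocytes take over in the central segment close to the brainstem, where astrocytes are also found. The border between them is the glial transition zone, which in rodents lies near the base of the cochlea, so a dissected cochlea can carry more or less of the central segment with it. MOG and MOBP are proteins of central myelin, whereas NCMAP is a protein of Schwann cell myelin.

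The libraries summed to between 316425 and 408162 FPKM (fragments per kilobase of transcript, scaled to library size), with 13729 to 14703 genes at 1 FPKM or more and 7.32 to 20.6% of the sum on mitochondrial genes. Read totals were not given, so depth is unknown and a 0 means only that a gene is listed at 0. Values below are FPKM after scaling of each library by a median of ratios, with factors of 0.920 to 1.06. Several libraries were low in the genes of a cochlear cell type, and the cause was not tested. Genotype and dissection cannot be told apart in the homozygous basal turn, where both repeats were low in hair cell genes. The summed level of 10 hair cell genes, which mark the sensory epithelium and reached 547 scaled FPKM elsewhere, was 5.25 and 8.27 in the homozygous basal turn, where prestin (Slc26a5) was 0.0507 and listed at 0. Gjb2 itself ranged over 139 to 433 for the wild-type and 58.4 to 449 for the mutant, and a deletion of 1 base cannot be read from a gene's level, so this checks no label. In wild-type middle turn repeats 1 and 2 the hair cell sum was 20.6 and 91.0. The summed level of 16 spiral ganglion neuron genes was 30.1 in wild-type basal turn repeat 1 and 68.6 in homozygous middle turn repeat 2, against 238 to 3922 in the other libraries.

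Promoter sequence was described for 6 of the 8 members, those with an entry in the RefSeq table used here. The members were chosen for their shared pattern between libraries, and any part of promoter sequence in it was not tested. Each window runs from 250 bases before to 50 bases after a start site on GRCm38.p6, and is printed on the strand of the gene. The 4 windows below belong to the highest member, Mobp, to the member with the most kinds of motif, Opalin, and to the leading central myelin and astrocyte genes Mog and Gfap. Both strands were searched, and capitals mark ACAAAG for SOX factors, CAGCTG (its own reverse complement) for E-box factors, TATAAA for the TATA-binding protein and CTGGCAC for MYRF. No marked word overlaps another in these 4 windows. Mobp lies at chr9:120149492-120149791 on the plus strand, Opalin at chr19:41077064-41077363, Mog at chr17:37023349-37023648 and Gfap at chr11:102897151-102897450, the last 3 on the minus strand.
Mobp: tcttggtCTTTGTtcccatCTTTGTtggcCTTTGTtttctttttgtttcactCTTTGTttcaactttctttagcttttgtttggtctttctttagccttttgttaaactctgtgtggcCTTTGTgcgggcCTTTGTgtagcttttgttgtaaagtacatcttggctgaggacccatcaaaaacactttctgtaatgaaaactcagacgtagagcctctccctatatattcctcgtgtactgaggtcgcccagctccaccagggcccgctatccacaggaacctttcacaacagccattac
Opalin: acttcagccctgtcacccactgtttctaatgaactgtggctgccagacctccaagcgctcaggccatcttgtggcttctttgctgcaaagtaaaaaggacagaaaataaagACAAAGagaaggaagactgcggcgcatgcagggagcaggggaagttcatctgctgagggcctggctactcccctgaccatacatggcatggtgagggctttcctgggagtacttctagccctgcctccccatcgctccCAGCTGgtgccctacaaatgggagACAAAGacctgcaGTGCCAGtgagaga
Mog: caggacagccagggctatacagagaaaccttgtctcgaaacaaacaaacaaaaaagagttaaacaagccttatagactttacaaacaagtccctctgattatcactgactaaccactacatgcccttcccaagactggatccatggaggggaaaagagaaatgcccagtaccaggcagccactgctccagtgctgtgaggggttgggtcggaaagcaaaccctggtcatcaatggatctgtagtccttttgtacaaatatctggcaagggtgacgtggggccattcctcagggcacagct
Gfap: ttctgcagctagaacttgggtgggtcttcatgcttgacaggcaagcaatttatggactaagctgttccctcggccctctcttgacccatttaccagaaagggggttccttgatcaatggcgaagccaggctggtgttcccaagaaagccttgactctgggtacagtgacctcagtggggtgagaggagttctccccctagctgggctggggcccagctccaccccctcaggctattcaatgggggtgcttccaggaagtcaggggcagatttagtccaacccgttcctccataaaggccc

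The Mobp window held ACAAAG, read on the other strand as CTTTGT, 6 times. Of the 32851 promoter windows in the table, 18.7% held these letters at least once, 2.37% at least 2 times, and 1 window, that of Mobp, 6 times or more. Opalin held them 2 times and was the only member with CTGGCAC, which 5.01% of all windows contain. CAGCTG stood in the Opalin and Aspa windows and in 16.3% of all, and TATAAA in the Olig2 and Aspa windows and in 13.6% of all. None of the 4 words was found in the Mog and Gfap windows. A match here describes letters and not a bound site.

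Mog encodes myelin oligodendrocyte glycoprotein, on the outer face of central myelin, and lies on chromosome 17, minus strand, at 37010743 to 37023398 (mm10). Its level was 211 in wild-type middle turn repeat 1, 114 and 68.8 in homozygous basal turn repeats 2 and 1, and 73.6 in wild-type basal turn repeat 2. The remaining libraries held 1.95 (wild-type middle turn repeat 2), 0.993 (homozygous apical turn repeat 2), 0.620 (wild-type basal turn repeat 1), 0.140 and 0 (wild-type apical turn), 0.137 (homozygous apical turn repeat 1), and 0.0555 and 0.134 (homozygous middle turn). Thus 4 libraries were high and 8 were low, with the fourth level 35.3 times the fifth. The wild-type middle and basal turns each had 1 high and 1 low repeat, so their range spanned both levels.

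Mobp, a small basic protein that compacts central myelin, reached the highest level of the 8 members. It was 638 in wild-type middle turn repeat 1, 266 and 192 in homozygous basal turn repeats 2 and 1, and 175 in wild-type basal turn repeat 2. The next level was 7.70, in homozygous apical turn repeat 2, and then 3.63, in wild-type middle turn repeat 2. Wild-type basal turn repeat 1 was at 1.16, the wild-type apical turn at 0.834 and 0.585, the homozygous middle turn at 0.776 and 1.05, and homozygous apical turn repeat 1 at 0.430. The same libraries as for Mog were high, 22.7-fold above the fifth. Mobp spans chromosome 9, plus strand, 120149707 to 120176091.

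Opalin, a membrane protein of mature oligodendrocytes, was the lowest member. It was 2.27 and 1.19 in homozygous basal turn repeats 2 and 1, 1.60 in wild-type basal turn repeat 2 and 1.04 in wild-type middle turn repeat 1, was 0.0932 in wild-type middle turn repeat 2 and 0.0316 in homozygous apical turn repeat 2, and was listed at 0 in the other 6 libraries. The 4 high libraries were those of Mog, but in a different order. For each of the other 7 members the highest level was in wild-type middle turn repeat 1, whereas for Opalin that library was the lowest of the 4. Opalin spans chromosome 19, minus strand, 41062473 to 41077113.

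Olig1 and Olig2 are basic helix-loop-helix transcription factors of the oligodendrocyte lineage. Both lie on the plus strand of chromosome 16, Olig2 at 91225457 to 91228677 and Olig1 at 91269772 to 91271933, with 41094 bp between them. Olig1 was 50.8 in wild-type middle turn repeat 1, 22.3 and 15.1 in homozygous basal turn repeats 2 and 1, and 13.5 in wild-type basal turn repeat 2. Its other values ran from 0 to 0.532. Olig2 was 11.2, 5.90, 3.88 and 2.62 in the same order of libraries, ran from 0 to 0.169 in the others, and was listed at 0 in 5 of them. Olig1 was therefore above Olig2, on the FPKM scale, in each of the 4 high libraries.

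Gfap, the intermediate filament of astrocytes, followed the oligodendrocyte genes. It was 365 in wild-type middle turn repeat 1, 250 and 148 in homozygous basal turn repeats 2 and 1, and 122 in wild-type basal turn repeat 2. Homozygous apical turn repeat 2 came next with 5.34, and the other 7 libraries held 0.807 to 1.80. Gfap lies on the minus strand of chromosome 11, 102887336 to 102897200, as does Aspa, at 73304992 to 73329596.

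Aqp4, the water channel of astrocyte endfeet, and Aspa, the aspartoacylase that oligodendrocytes use to break down N-acetylaspartate, had a higher floor. AQP4 is also a known protein of cochlear supporting cells. Aqp4 was 90.7 in wild-type middle turn repeat 1, 66.1 and 35.0 in homozygous basal turn repeats 2 and 1, and 45.8 in wild-type basal turn repeat 2, and it kept 3.81 to 10.01 in the other 8 libraries. Its floor was highest in the wild-type apical turn, with 9.0 and 10.01. Aspa was 36.8 in wild-type middle turn repeat 1, 29.2 and 14.1 in homozygous basal turn repeats 2 and 1, 23.1 in wild-type basal turn repeat 2, and 12.3 in wild-type middle turn repeat 2. Its other 7 libraries held 3.10 to 7.38. The fourth level was 3.50 times the fifth for Aqp4 and 1.15 times the fifth for Aspa, so for Aspa homozygous basal turn repeat 1 and wild-type middle turn repeat 2 did not differ beyond the spread of either group.

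**Figure D1:**
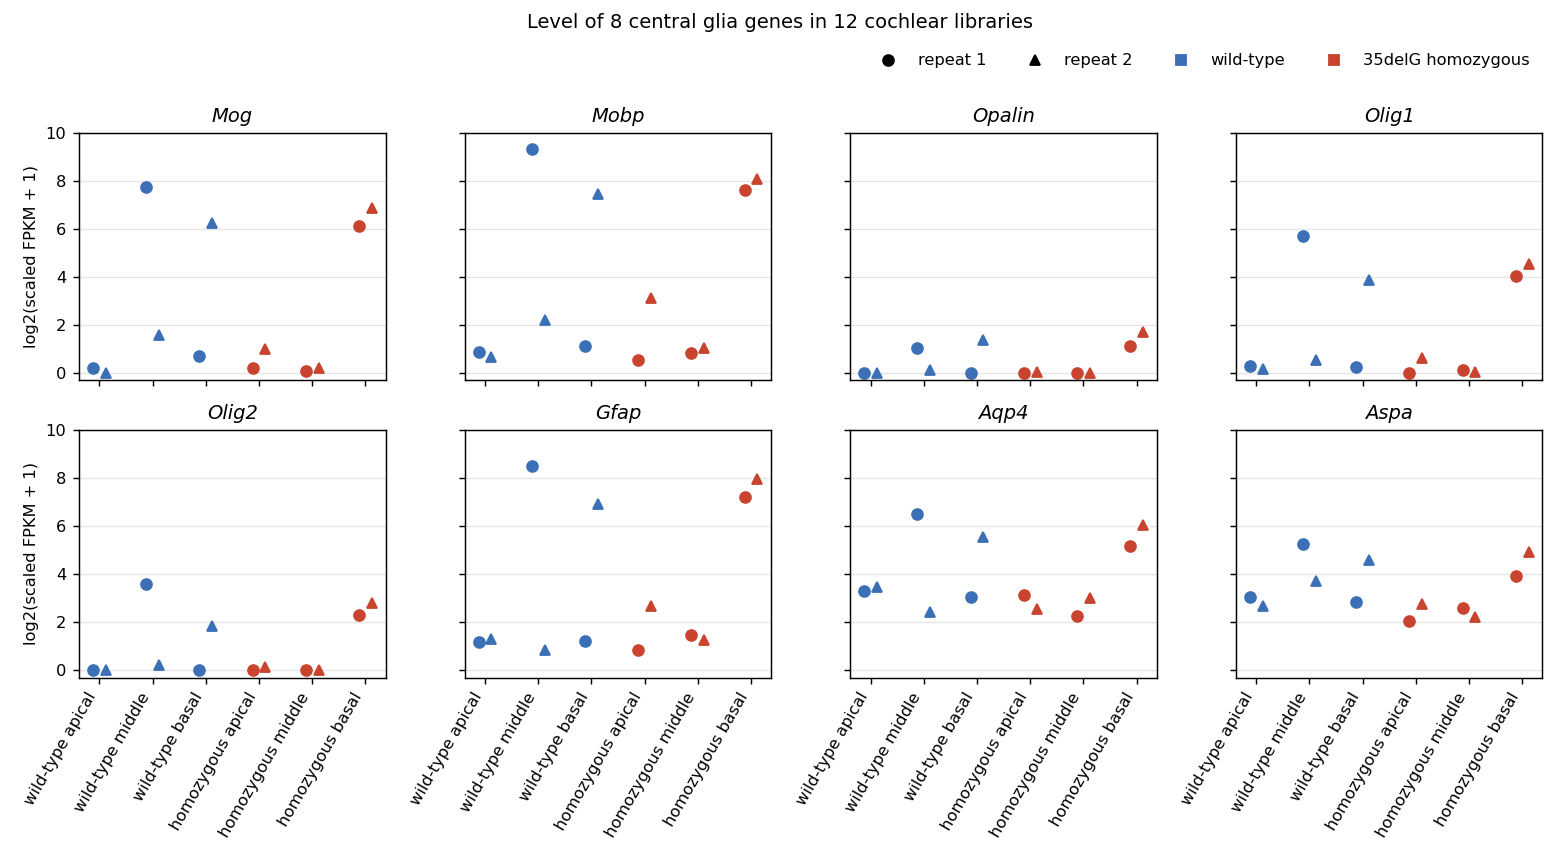
Level of each member as log2(scaled FPKM + 1) in each of the 12 libraries, grouped by genotype and turn on the horizontal axis; circles are repeat 1, triangles repeat 2, blue wild-type and red 35delG homozygous. Wild-type middle turn repeat 1, wild-type basal turn repeat 2 and both homozygous basal turn repeats were the 4 highest libraries for all 8 members, with Mog at 68.8 or more in them and at 1.95 or less in the others.

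The same 4 libraries thus held the 4 highest levels of all 8 members, also in the FPKM as deposited (8 of 8). This order is what the choice of members rests on, and 2.36% of the 16215 genes that reached 1 FPKM in 2 or more libraries shared it. Where the fourth level was also at least 5 times the fifth, as for 6 members, the share was 0.222%. All 8 members passed that expression filter, Opalin, Olig1 and Olig2 through the 4 high libraries alone.

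Repeats of a group differed by more than 2 on the log2(scaled FPKM + 1) scale for 6 of 8 members in the wild-type middle turn (0.956% of all tested genes) and for 5 in the wild-type basal turn (3.24%). The number was 1, Mobp, in the homozygous apical turn (0.216%), and it was 0 in the wild-type apical (0.167%), homozygous middle (1.87%) and homozygous basal turns (1.01%). These differences were part of the reason for the choice and are not read further. In the wild-type middle turn the higher repeat over the lower was 448-fold for Gfap, 175-fold for Mobp, 112-fold for Olig1, 108-fold for Mog, 66.2-fold for Olig2, 20.7-fold for Aqp4 and 2.99-fold for Aspa, each higher in repeat 1. In the wild-type basal turn it was 150-fold for Mobp, 119-fold for Mog, 90.2-fold for Gfap, 71.0-fold for Olig1, 6.22-fold for Aqp4 and 3.69-fold for Aspa, each higher in repeat 2. The homozygous basal repeats stayed within 1.38-fold (Mobp) to 2.07-fold (Aspa) of each other, repeat 2 being the higher for all 8.

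Group means carried this spread. Mog averaged 106 ± 148 (SD, n = 2) in the wild-type middle turn, 37.1 ± 51.6 (SD, n = 2) in the wild-type basal turn and 91.3 ± 31.9 (SD, n = 2) in the homozygous basal turn. The SD exceeded the mean in both wild-type groups, so the order of these 3 means was within the spread between repeats. Gfap behaved likewise, with 183 ± 257, 61.5 ± 85.0 and 199 ± 71.9 (SD, n = 2 each). In the basal turn, both homozygous values lay above both wild-type values for 4 of 8 members, Mobp, Olig1, Olig2 and Gfap, where 26.2% of all tested genes did so. In the middle turn both homozygous values lay below both wild-type values for 6 of 8, all but Gfap and Aqp4, where 28.2% of genes did so. Of these 6, Opalin, Olig1 and Olig2 were below 1 in both homozygous repeats and in wild-type repeat 2, where the counting error is unknown. In the apical turn 1 member, Aqp4, was lower without overlap, as were 32.1% of genes. The members were chosen on these levels, so these counts are a description and not a test.

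Within the 4 high libraries, the members kept nearly fixed proportions to Mog. Mobp was 2.33 to 3.03 times Mog, Gfap 1.65 to 2.19 times, Olig1 0.183 to 0.241 times and Aqp4 0.430 to 0.623 times. Olig2 ranged from 0.0356 to 0.0564 times Mog and Aspa from 0.175 to 0.314 times. Mog itself varied 3.06-fold over these libraries, while the proportions of these 6 genes varied 1.30-fold to 1.80-fold. Opalin departed from this, but it stood at only 1.04 to 2.27 scaled FPKM in these libraries, where the counting error is unknown. It was 0.00492 times Mog in wild-type middle turn repeat 1, and 0.0217, 0.0173 and 0.0200 times in wild-type basal turn repeat 2 and homozygous basal turn repeats 1 and 2, a 4.41-fold range.

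**Figure D2:**
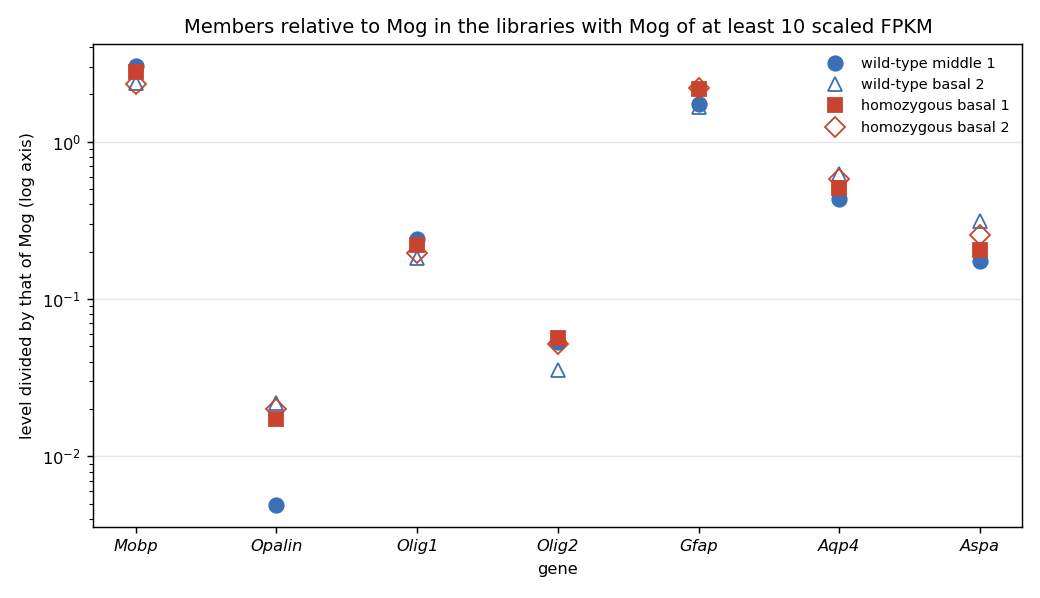
Level of 7 members divided by the level of Mog, on a log axis, in the 4 libraries where Mog was at least 10 scaled FPKM; blue symbols are wild-type, red homozygous, and open symbols repeat 2. The ratios of Mobp, Olig1, Olig2, Gfap, Aqp4 and Aspa lie within 1.80-fold, whereas Opalin is at 0.00492 in wild-type middle turn repeat 1 and at 0.0173 to 0.0217 in the other libraries.

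Across all 12 libraries the 28 pairs of members had Pearson's r of 0.865 to 0.993 (median 0.947) and Spearman's rho of 0.515 to 0.951 on the log2 scale, with 13 pairs at an r above 0.95. These are descriptions over 12 libraries that fall into a high and a low cluster. They share their depth and dissection.

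Levels of central and peripheral myelin genes did not run in parallel over the wild-type libraries. Among the homozygous libraries, Mog, Ncmap and Pmp22 were each highest in the 2 basal ones. Ncmap, a membrane protein of Schwann cell myelin, was 104 and 225 in wild-type middle turn repeats 1 and 2, although Mog was 211 in the first and 1.95 in the second. Ncmap was 94.4 and 32.4 in the wild-type basal turn, the lower value being that of repeat 2, where Mog was 73.6. It was 84.4 and 149 in the homozygous basal turn, 76.7 and 72.8 in the wild-type apical turn, 39.1 and 45.4 in the homozygous apical turn and 19.2 and 25.9 in the homozygous middle turn. Its highest level was thus in a library with low members, and its values in the 4 high libraries, 32.4 to 149, overlapped those in the other 8, 19.2 to 225. Pmp22, a peripheral myelin protein also made by other cells, was 1146 and 2095 in wild-type middle turn repeats 1 and 2 and 485 and 534 in the wild-type basal turn. In homozygous mice Pmp22 was 914 and 1829 in the basal turn, 266 and 199 in the middle turn and 368 and 570 in the apical turn.

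Neuronal transcripts were likewise present without the members. Nefl, the light neurofilament subunit carried by auditory nerve axons, was 298 in wild-type middle turn repeat 2 and 268 in repeat 1. It was 115 and 167 in the wild-type apical turn, where Mog was 0.140 and 0. In the 4 libraries with high members it was 268, 181, 415 and 592. The only library in which it fell below 5 was wild-type basal turn repeat 1, at 1.69, and Mog there was 0.620. Snap25, of the synaptic release machinery, and Nefh and Nefm, the other neurofilament subunits, were the highest neuronal genes, and they were at 2.16, 0.594 and 2.26 in that library against 7.30 or more in each of the others.

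**Figure D3:**
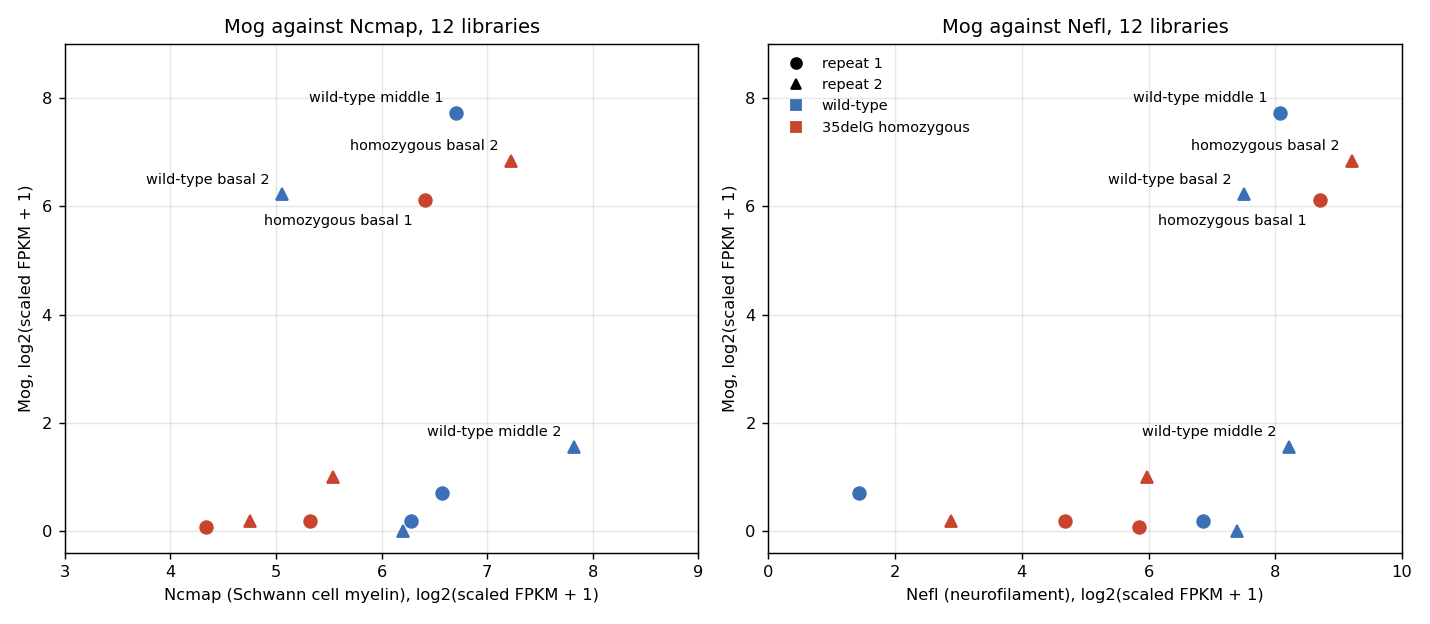
Mog against Ncmap (left) and against Nefl (right), each as log2(scaled FPKM + 1), with 1 point a library; blue is wild-type, red homozygous, circles repeat 1 and triangles repeat 2. Wild-type middle turn repeat 2 had the highest Ncmap (225) with Mog at 1.95, and wild-type basal turn repeat 2 had Ncmap of 32.4 with Mog at 73.6.

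Other genes of the same cell types were taken from lists of 20 oligodendrocyte and 18 astrocyte genes that hold no member. As a mean of log2(scaled FPKM + 1), the oligodendrocyte list had an r of 0.98 with the mean of the 8 members over 12 libraries, and the astrocyte list an r of 0.99. The myelin genes that both glia use had 0.93, spiral ganglion neuron genes 0.63, central neuron genes 0.58, microglia genes 0.56 and Schwann cell genes 0.48. Hair cell genes had -0.82 and supporting cell genes -0.79. The 4 libraries high for the members were the 4 highest for 13 of 18 tested oligodendrocyte genes and 11 of 18 tested astrocyte genes, for 7 of 12 myelin genes of both glia and 3 of 8 microglia genes, and for none of the 15 Schwann cell, 16 spiral ganglion neuron, 10 hair cell or 10 supporting cell genes, beside the 2.36% of all genes given above. At least Ermn, Hapln2, Klk6, Nkx6-2 and Ntsr2 passed the expression filter through those 4 libraries alone. The filter thus partly fixed their order in advance, and the counts are a description. Ocm, the calcium buffer of outer hair cells, was 0.344, 46.5, 3.14 and 0.387 in these 4 libraries and 20.1 to 359 in the others, Otof, of inner hair cell release, was 0.0979 to 20.6 against 13.9 to 61.5, and Slc17a8, their glutamate transporter, was 0.754 to 4.92 against 5.53 to 31.4. Among the supporting cell genes of highest level, Epyc, a matrix proteoglycan, was 1.38 to 213 against 336 to 1493, while the connexin genes Gjb2 and Gjb6 overlapped between these libraries and the rest. Whether the lower hair cell and supporting cell genes and the higher members in these libraries have a common source was not tested.

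The oligodendrocyte genes that shared the order included Ermn, a cytoskeletal protein of myelinating cells, at 72.5, 26.3, 18.3 and 31.8 in wild-type middle turn repeat 1, wild-type basal turn repeat 2 and homozygous basal turn repeats 1 and 2, and 0.0543 to 0.282 in the rest. Hapln2, which links hyaluronan at nodes of Ranvier, was 50.8, 10.7, 23.1 and 32.4 in these libraries and 0.0421 to 0.445 elsewhere. Among astrocyte genes, Ntsr2, a neurotensin receptor, was 18.5, 6.89, 10.1 and 17.1, and at most 0.356 elsewhere. Mlc1, a membrane protein of astrocyte endfeet, was 28.6, 10.05, 12.5 and 20.2, and at most 1.06 elsewhere. Mbp, a protein of central and peripheral myelin, moved in the same direction from a high floor. It was 11788 against 1153 in the wild-type middle turn, 327 against 3240 in the wild-type basal turn, and 4033 and 6580 in the homozygous basal turn, with 142 to 525 in the other libraries. Cnp, a myelin phosphodiesterase, was 608 against 273 and 68.9 against 161 in the wild-type middle and basal turns.

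The 3 oligodendrocyte list genes of highest mean level behaved differently from the members. Bcas1, a protein of myelin-forming cells, kept 28.7 and 30.8 in the wild-type apical turn, where Mog was 0 and 0.140. Lhfpl3, a gene of oligodendrocyte precursors, was 45.8 in wild-type middle turn repeat 2, the highest of its 12 values. Omg, oligodendrocyte myelin glycoprotein, was 23.8 there. Over the 12 libraries Lhfpl3 had an r of 0.97 with the mean of the spiral ganglion neuron genes and 0.58 with that of the members, and Omg 0.92 and 0.82. Carns1, the carnosine synthase of oligodendrocytes and muscle, had 0.90 with the Schwann cell genes and 0.56 with the members. In all, 14 of 18 oligodendrocyte and 16 of 18 astrocyte genes had a higher r with the members than with the Schwann cell or spiral ganglion neuron lists, but that r was low for Gpr37 (0.54), Aldh1l1 (0.49), Agt (0.31) and Ppp1r3c (0.29), and negative for Etnppl (-0.49). Of the 3 astrocyte genes of highest mean, Aldoc, a glycolytic aldolase, had its 4 highest values in the members' 4 libraries (60.9 to 100), but Agt and Fam107a did not, and Fam107a was lowest in the homozygous basal turn (58.0 and 23.7).

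Few of the central neuron genes listed here accompanied the glial ones, and no other list of central neuron genes was examined. Of 12 genes of central neurons, 9 stayed at 0.649 scaled FPKM or less in all 12 libraries, among them Neurod6 and Slc32a1, and only Pvalb, Slc17a6 and Gad1 were tested. Pvalb, a calcium buffer, and Slc17a6, a glutamate transporter, are also expressed by spiral ganglion neurons, and Pvalb was 731 in wild-type middle turn repeat 2, where the members were low. The summed level of 8 microglia genes ran from 38.1 to 90.8.

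**Figure D4:**
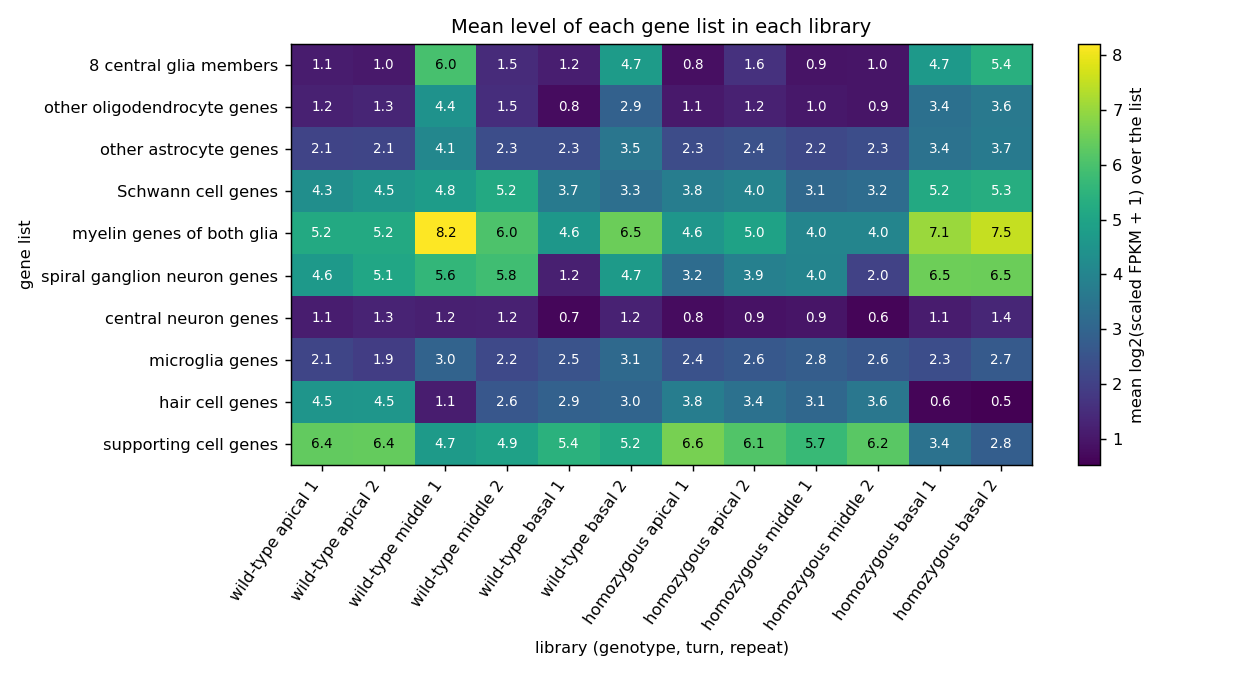
Mean log2(scaled FPKM + 1) of each gene list (vertical axis) in each of the 12 libraries (horizontal axis), with the value printed in each cell and brighter colour for higher means. The means of the 8 members were 5.96, 4.73, 4.68 and 5.36 in wild-type middle turn repeat 1, wild-type basal turn repeat 2 and homozygous basal turn repeats 1 and 2 and 0.84 to 1.61 in the others, and the hair cell list was at its lowest in the homozygous basal turn.

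The genes whose pattern was most like each member were taken from all 16207 non-members by Pearson's r over 12 libraries. For Mog these were Klk6 (0.991), a protease of mature oligodendrocytes, Ermn (0.9903) and Gm37111 (0.989). For Mobp they were Gm38642 (0.986), Gm37111 (0.985) and Klk6 (0.985). For Olig1 they were Klk6 (0.998), Gm37111 (0.997) and Ermn (0.996), and for Olig2 Nkx6-2 (0.998), a homeobox factor of oligodendrocytes, and Glycam1 (0.994). For Gfap they were Ntsr2 (0.993), Gm38642 (0.992) and Dao (0.989), a D-amino acid oxidase. For Aqp4 they were Ccdc190 (0.982), Efnb3 (0.973) and Gm19439 (0.967), and for Aspa Tppp3 (0.975), Fez1 (0.973) and Mbp (0.963). Klk6, Ermn, Nkx6-2 and Ntsr2 are on the oligodendrocyte and astrocyte lists, and Mbp is on the list of myelin genes of both glia.

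Closest to Opalin, the lowest member, were Gm6145 (0.979) and the betaine and GABA transporters Slc6a12 (0.974) and Slc6a13 (0.964). Slc6a13 was 61.6 in homozygous basal turn repeat 2, 17.0 in wild-type basal turn repeat 2, 11.1 in wild-type middle turn repeat 1 and 10.8 in homozygous basal turn repeat 1, so that, as for Opalin, wild-type middle turn repeat 1 was not the highest. An r above 0.95 with the mean of the members was held by 57 of the 16207 genes, 15 of them among the 36 tested genes of the oligodendrocyte and astrocyte lists.

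Tests between groups were run with limma on log2(scaled FPKM + 1) over all 16215 genes and are given for lists without members, first for the 36 oligodendrocyte and astrocyte genes, since the members were chosen on these values. Calls required a change over 2-fold and a Benjamini-Hochberg adjusted p below 0.01. Between genotypes, 0 of 36 were called in the apical turn, where 0.179% of all genes were called in either direction, and 2 had an unadjusted p under 0.05. In the middle turn 0 were called (0.179% of all genes), 10 had an unadjusted p under 0.05, and the median log2 fold change was -1.79, against 0.04 for all genes, homozygous minus wild-type. That median was -0.07 without wild-type middle turn repeat 1 and -3.04 without repeat 2. In the basal turn 1 was called, Carns1, which was higher in homozygous mice (4.29% of all genes in either direction, 2.53% higher). Its log2 fold change was 2.47 (SE 0.27, adjusted p = 0.00317, limma), with 2.73 and 4.35 scaled FPKM in the wild-type repeats and 27.0 and 20.8 in the homozygous ones, and the call was lost without wild-type basal turn repeat 1 or homozygous basal turn repeat 1. The median of the 36 was 1.16, against -0.02 for all genes, and it was 0.21 without wild-type basal turn repeat 1 and 2.36 without repeat 2.

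Between turns of wild-type mice, 0 of 36 genes were called by limma (0% of all genes), with 6 at an unadjusted p under 0.05 and a median of -0.57, basal minus middle. This median was 0.67 and -2.02 without wild-type middle turn repeats 1 and 2, and 0.21 and -1.69 without wild-type basal turn repeats 1 and 2. Between turns of homozygous mice 2 of 36 were called, both higher in the basal turn (4.67% of all genes were called in either direction, 3.11% higher). These were Carns1, by 2.15 (SE 0.27, adjusted p = 0.00419, limma), and Bcas1, by 2.98 (SE 0.44, adjusted p = 0.00552, limma). The median of the 36 was 2.20, against -0.06 for all genes. Leaving out single libraries moved this count between 0 and 7. It was 7, with Fam107a lower among them, without either wild-type basal repeat, and 0 or 1 without an apical library, either homozygous middle or either homozygous basal repeat, and the call left without homozygous basal turn repeat 1 was a lower one, Etnppl.

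The difference of the genotype effect between basal and middle turn was called for 5 of 36 genes, all higher (8.91% of all genes were called in either direction, 6.33% higher). They were Lhfpl3 (log2 difference 7.15, SE 1.27, adjusted p = 0.00593), Bcas1 (4.73, SE 0.63, adjusted p = 0.00284), the astrocyte receptor Gpr37l1 (4.19, SE 0.75, adjusted p = 0.00603), the glial adhesion protein Hepacam (3.90, SE 0.74, adjusted p = 0.0076) and Carns1 (3.84, SE 0.39, adjusted p = 0.00158), all by limma. The median was 3.04, against -0.12 for all genes, and was 1.75 without wild-type middle turn repeat 1 and 2.001 without wild-type basal turn repeat 1. Carns1 and Bcas1 were called whichever of the 12 libraries was left out, and the count ran from 2 to 8, being 8, with Fam107a lower among them, without wild-type basal turn repeat 2 and 2 or 3 without an apical library, wild-type middle turn repeat 1 or a homozygous middle or basal repeat. Of the 3 without homozygous basal turn repeat 1, Etnppl was lower. Of these 5 genes, 1, Hepacam, had its 4 highest levels in the 4 libraries of the members, with 5.56 in the fourth and 5.41 in the fifth.

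Peripheral glia and neurons gave calls in the same contrasts. Of all genes, 2.53% were called higher for genotype in the basal turn, 3.11% between homozygous turns and 6.33% for the difference of genotype effects. Of 12 myelin genes of both glia, 0, 4 and 6 were called higher, in the same order. The medians of that list ran from 0.82 to 2.98, 3.42 to 3.81 and 4.47 to 6.51 without single libraries. Of 15 Schwann cell genes, 13 had a higher genotype effect in the basal than the middle turn by limma (6.33% of all genes), and 9 to 13 without single libraries. In the basal turn itself 8 of the 15 were higher in homozygous mice (2.53% of all genes), but 3 without either wild-type apical repeat and 5 without any 1 of the homozygous apical or basal libraries. Between homozygous turns 11 were higher in the basal turn (3.11% of all genes), and 0 to 12 without single libraries, with 0 without either wild-type apical repeat, homozygous middle turn repeat 1 or homozygous basal turn repeat 2. Of 16 spiral ganglion neuron genes, 2 were higher in homozygous than wild-type mice in the basal turn, 2 in the basal than the middle turn of homozygous mice and 5 for the difference of genotype effects, and without single libraries these counts ran from 0 to 14, 0 to 13 and 2 to 14. For Schwann cell and spiral ganglion neuron genes the order of turns was the other way in wild-type mice. There 0 of 15 Schwann cell and 0 of 16 spiral ganglion neuron genes had a log2 fold change above 0, basal minus middle. The medians were -1.61 and -3.11, and 0 genes were called by limma. For genotype in the middle turn, 0 genes of either list were above 0, and 2 Schwann cell genes were called lower. Pmp22 and Ncmap, among the highest of the Schwann cell list, are proteins of Schwann cell myelin. The part of peripheral myelin and of neuronal transcripts in the calls of Carns1, Bcas1, Lhfpl3, Gpr37l1 and Hepacam was not tested.

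**Figure D5:**
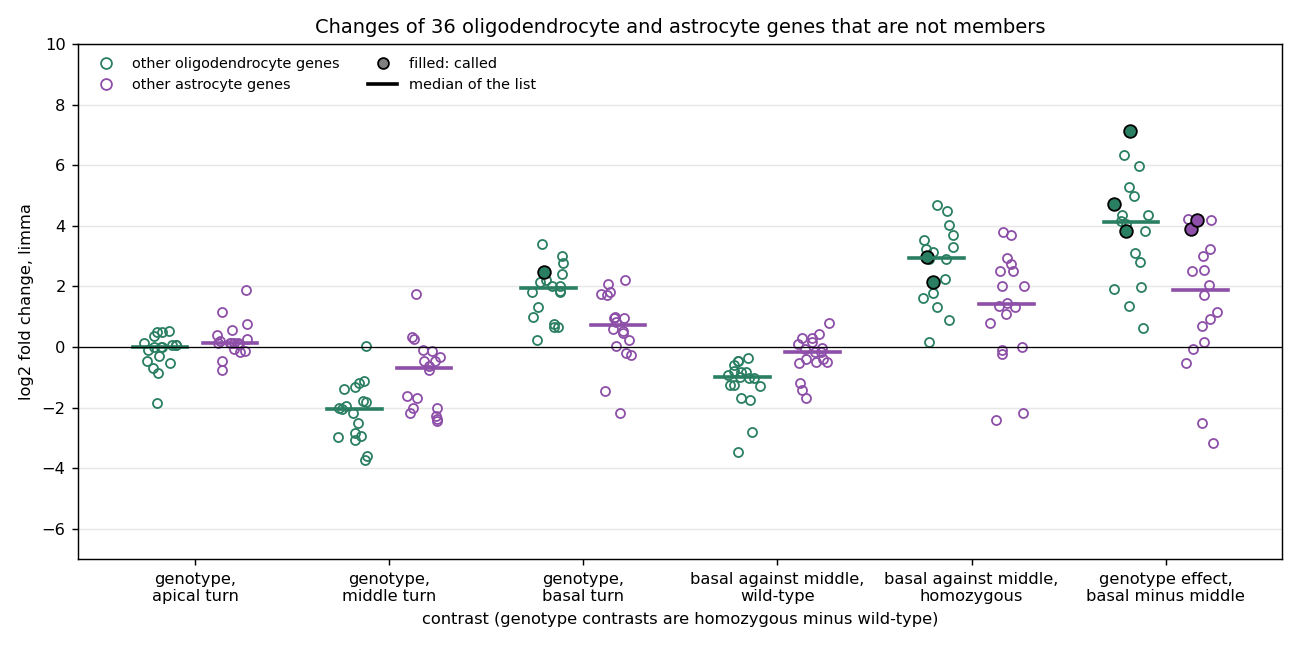
log2 fold change from limma of 18 oligodendrocyte (green) and 18 astrocyte (purple) genes that are not members, in 6 contrasts along the horizontal axis; filled points passed an adjusted p of 0.01 with a change over 2-fold, and bars are medians. Medians of the oligodendrocyte genes were -2.03 for genotype in the middle turn, 1.93 in the basal turn and 4.11 for the difference between them, with 0, 1 and 3 genes called, and ran from -3.73 to -0.14, 0.65 to 3.002 and 2.08 to 5.96 when 1 library was left out.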

How the data were processed

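RNA from the apical, middle and basal turns of P14 cochleae was sequenced as 150 bp pairs. The authors deposited 1 FPKM table of 37432 genes and 12 libraries. Per the labels and methods, reads were trimmed with fastp 0.20.0, mapped to mm10 with STAR 2.7.3a, and FPKM computed with StringTie 2.0; the annotation release and strandedness are not given in the sources used here. Mog, Olig1, Gfap and Aqp4 overlap a gene on the opposite strand, whose reads cannot then be told apart. Libraries were scaled by medians of ratios over 11552 genes at 1 FPKM or more in all 12. limma 3.58.1 (R 4.3.3) was fitted to log2(scaled FPKM + 1) of 16215 genes with 1 FPKM in 2 libraries, with a mean for each of 6 groups, a trended prior and Benjamini-Hochberg adjustment, after being tested on simulated data. Figures were drawn with matplotlib 3.10.9.

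The members and gene lists were chosen with earlier results of these data known. Genes named were the 8 members, the 3 of highest mean in each list, list genes called in any contrast, and the 3 most like each member; some genes this rule names are not reported here. Promoters came from RefSeq (GRCm38.p6). Genes shown beside these for their levels (Ermn, Hapln2, Ntsr2, Mlc1, Nefl, Slc26a5, P2ry12, Siglech and the central neuron genes) were chosen after their values were seen. Alternatives covered the pseudocount, filter, scaling, threshold, a replicate block, the libraries fitted and each library left out.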

Additional observations from a re-analysis of the deposited data

Results flagged for a closer look

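For 5 of the 36 tested oligodendrocyte and astrocyte genes that are not members, the genotype effect differed between basal and middle turn by limma's test of that difference. All 5 were higher, beside 6.33% of all genes called higher and 8.91% called in either direction. Of 15 Schwann cell genes, 13 were called higher in the same contrast. On the log2 scale the differences, basal minus middle, were 7.15 for Lhfpl3, 4.73 for Bcas1, 4.19 for Gpr37l1, 3.90 for Hepacam and 3.84 for Carns1. In wild-type basal turn repeats 1 and 2 these genes stood at 0.449 and 8.17 (Lhfpl3), 15.0 and 36.5 (Bcas1), 4.49 and 17.0 (Gpr37l1), 1.92 and 5.56 (Hepacam), and 2.73 and 4.35 (Carns1) scaled FPKM, each lower in repeat 1, the repeat with low members and with a sum of 30.1 over the 16 spiral ganglion neuron genes. The part of either in these differences was not tested. Groups held 2 libraries, so no library could be examined as an outlier within its group.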

How the results depend on the processing

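Counts of called genes among the 36 oligodendrocyte and astrocyte genes kept within 1.5 times of the values above under quantile normalization, without scaling of the libraries, with a pseudocount of 0.1 and when 5 FPKM was required. With no filter on low values, 0 were called between homozygous turns and 1 for the difference of genotype effects. Among all 36005 genes then fitted, 71 and 296 were called in these contrasts. At an adjusted p under 0.05 the counts were 3 for genotype in the middle turn (all lower), 5 in the basal turn (4 higher), 9 between homozygous turns (7 higher) and 10 for the difference (8 higher). Of all 16215 genes, 475, 1954, 2014 and 3213 were called at that limit in these contrasts, in the same order. With only the libraries of the groups compared in the fit, 1 gene (Etnppl, higher) was called in the apical turn and 0 in the basal turn, between homozygous turns and for the difference. Of all 16215 genes, 93 were called in the apical turn by that fit and 0 in those other contrasts. Without single libraries the counts ran from 0 to 0 for genotype in the apical turn, 0 to 1 in the middle turn, 0 to 6 in the basal turn, 0 to 0 between wild-type turns, 0 to 7 between homozygous turns and 2 to 8 for the difference, and a lone library was assumed to vary like the other groups. The 1 call between homozygous turns without homozygous basal turn repeat 1 had the opposite direction. The cause was not tested.

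Same-numbered repeats deviated together, with r over 0.1, in 4 of 15 pairs of groups and against each other, under -0.1, in 6. The r ran from -0.43 to 0.45. These values cannot show whether same-numbered libraries came from the same animals, since turns of the same cochlea could deviate in either direction. With a replicate block, 1 gene was called between homozygous turns and 3 for the difference (300 and 967 of all 16215 genes). For the 8 calls named above, 97 alternatives kept the call, 63 lost it and 0 turned its direction. The difference in the members' mean log2 level, repeat 2 minus repeat 1, was -4.50 in the wild-type middle turn and 3.58 in the wild-type basal turn. The members were chosen for differing between repeats, so these values are a description.

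FPKM carry no read totals, so levels below 1, such as those of Opalin in 8 libraries, have no known counting error. With 2 libraries a group, genotype, origin of the animals and dissection cannot be told apart.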

Other observations

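Microglia, the resident macrophages of central tissue, were examined through 8 genes. P2ry12, a purinergic receptor of microglia, was 7.08 in wild-type middle turn repeat 1, 6.06 in wild-type basal turn repeat 2 and 3.97 and 6.31 in the homozygous basal turn, and 1.05 to 3.11 in the other 8 libraries. Siglech was 2.80, 1.95, 1.46 and 2.32 in these 4 libraries and 0.191 to 1.45 elsewhere. The 3 genes of highest mean, Tmem119, Olfml3 and Sall1, did not share this order, with Tmem119 at 40.6 in wild-type basal turn repeat 2 and 36.8 in repeat 1. The 8 genes' mean log2 level had an r of 0.56 with that of the members over 12 libraries. P2ry12 and Siglech were named after their values were seen.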
